A study of Mus musculus with 2 samples.

Results

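Secretory airway proteins were followed through 7 genes, *Scgb1a1*, *Scgb3a2*, *Scgb3a1*, *Cyp2f2*, *Cbr2*, *Bpifa1* and *Muc5b*, chosen by name out of 27254 genes listed in the 2 count matrices. The matrices hold Drop-seq counts of dissociated whole lung cells from wild type C57BL/6J mice at postnatal day 1, female by the study's methods. The study names 2 individual mice and 2 batches, and 1 mouse per batch is assumed here. Between the batches, animal, sample preparation and sequencing cannot be told apart. No treatment or genotype was compared, and no cell barcode was shared between the batches. Lungs had been minced and digested, red blood cells lysed, and the upper part of the settled suspension taken, so that the cells recovered need not reflect the makeup of the tissue. Cells with at most 10% mitochondrial UMIs (unique molecular identifiers, each standing for 1 captured transcript) were kept, 2388 of 2389 in Batch 1 and 5615 of 7555 in Batch 2. The kept cells held 4432553 and 18232639 UMIs, with medians of 1386.5 and 2014 per cell. All 7 genes had a row in Batch 1 and 6 in Batch 2, where *Bpifa1* was not listed.

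The lining of the conducting airways consists mainly of secretory club cells and ciliated cells. Club cells release secretoglobins, small proteins of the airway surface fluid encoded by *Scgb1a1*, *Scgb3a2* and *Scgb3a1*, and carry out much of the lung's metabolism of foreign compounds through enzymes such as the cytochrome P450 CYP2F2 and the carbonyl reductase CBR2. *Bpifa1* encodes an antimicrobial surface protein of the upper airways and *Muc5b* a gel-forming mucin. Alveolar type 1 (AT1) cells form the gas exchange surface and alveolar type 2 (AT2) cells make surfactant.

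In GRCm38 coordinates of the GENCODE annotation, all 7 are protein-coding genes. *Scgb1a1* lies at chr19:9083636-9087958 on the minus strand, *Scgb3a2* at chr18:43764289-43767399 on the plus strand, and *Muc5b* at chr7:141839070-141873084 on the plus strand, 19838 bases from the mucin gene *Muc5ac*. *Cyp2f2*, at chr7:27119909-27133660 on the plus strand, overlaps the antisense gene *Gm15883*, and whether the counting used strand is not given in the sources used here. *Scgb3a1*, at chr11:49663610-49665118, and *Cbr2*, at chr11:120729489-120732114 on the minus strand, share a chromosome but not a neighbourhood. The nearest gene to *Cbr2* is the carbonyl reductase gene *Dcxr*, 2207 bases away on the same strand, and *Flt4*, a receptor of lymphatic endothelium, ends 10870 bases before *Scgb3a1* on the same strand. *Bpifa1* is at chr2:154142880-154149219, between *Bpifa3* and *Bpifa5*.

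The 250 bases before the RefSeq start (GRCm38.p6) are shown for 3 genes whose cell distributions differed in the counts described next. *Cyp2f2* (chr7:27119705-27119954, plus strand) was near background outside airway cells, *Cbr2* (chr11:120732022-120732271, minus strand) was also found in AT2-like cells, and *Scgb3a1* (chr11:49663345-49663594, plus strand) was found in endothelial cells. Sequences run 5′ to 3′ on the gene's strand, and capitals mark matches on either strand to the letters CAAGNG (NKX2 factors), TGTTTNC (forkhead factors) or AGGAAGT (ETS factors).

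Cyp2f2: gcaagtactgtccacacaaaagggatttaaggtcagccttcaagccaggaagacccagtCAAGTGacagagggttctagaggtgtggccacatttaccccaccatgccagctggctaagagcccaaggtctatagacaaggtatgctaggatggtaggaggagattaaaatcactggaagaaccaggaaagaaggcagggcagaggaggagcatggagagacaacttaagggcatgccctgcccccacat
Cbr2: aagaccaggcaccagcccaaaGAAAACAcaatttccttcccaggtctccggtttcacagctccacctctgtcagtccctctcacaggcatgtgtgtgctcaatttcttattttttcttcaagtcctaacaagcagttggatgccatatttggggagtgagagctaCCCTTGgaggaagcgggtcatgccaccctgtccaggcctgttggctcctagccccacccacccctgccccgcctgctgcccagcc
Scgb3a1: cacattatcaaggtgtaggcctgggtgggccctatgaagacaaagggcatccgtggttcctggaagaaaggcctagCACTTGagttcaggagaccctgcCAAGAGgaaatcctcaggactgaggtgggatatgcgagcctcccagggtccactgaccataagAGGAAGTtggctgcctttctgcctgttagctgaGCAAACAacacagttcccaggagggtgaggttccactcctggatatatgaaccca

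Letters of the NKX2 motif occurred once in *Cyp2f2*, once in *Cbr2* and at 2 places in *Scgb3a1*, and in 40.6% of 32851 RefSeq promoter windows of this length. The forkhead letters occurred in *Cbr2* and *Scgb3a1* and in 17.8% of windows, and the ETS letters in *Scgb3a1* alone of these 3 and in 7.69% of windows. None of the motifs overlapped another in these windows, and a match shows the letters only.

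Cell classes came from clusters made without the 7 genes and without 40 related genes, and were named from marker lists. Airway clusters held 13 cells in Batch 1 and 118 in Batch 2. They comprised secretory-like cells (4 and 37), ciliated-like cells (7 and 25) and cells with markers of both lists (2 and 56). The ciliated list, which includes the ciliogenesis regulator *Foxj1* and dynein genes, separated these clusters: in Batch 2 its 15 genes summed to 1.16 UMIs per 10000 in secretory-like cells, where 7 of them were at 0, to 40.6 in cells with both lists and to 102 in ciliated-like cells. The 12 airway secretory markers did not separate them, summing to 76.3, 70.7 and 69.9 per 10000. The cells with both lists stood apart in depth, with a median of 14078.5 UMIs against 4728 in secretory-like and 5376 in ciliated-like cells of Batch 2. Scrublet called 13 and 118 cells of the 2 batches doublets, and 0 of them were airway cells. Called doublets were kept, and leaving them out changed no call of a member. Endothelial, mesenchymal and immune markers each summed to at most 2.94 per 10000 in every airway group, while hemoglobin and *Alas2* summed to 163 to 888 per 10000 in Batch 1 airway groups and 8.73 to 18.9 in Batch 2. Alveolar markers summed to more, the 9 of AT1 cells to 13.2 to 29.2 and the 9 of AT2 cells to 5.35 to 31.4 per 10000. Both sums were highest in secretory-like cells of Batch 2. The part of doublets and of depth in the values of the cells with both lists was not tested.

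Alveolar clusters held 294 and 1299 cells, of which 158 and 460 were AT2-like, 64 and 324 AT1-like and 72 and 515 carried both AT1 and AT2 markers. Non-epithelial cells numbered 1961 and 4008 and comprised endothelial (568 and 1535), mesenchymal (1223 and 1987) and immune cells (170 and 486). Levels are given as UMIs of a gene per 10000 UMIs of the summed cells, with exact Poisson 95% intervals, and detection as the percentage of cells holding a UMI of the gene, with exact binomial 95% intervals. These intervals cover counting error only. Between classes, counts summed per batch were tested with edgeR's quasi-likelihood test with the batch as a block and Benjamini-Hochberg adjustment over all genes. Differences are log2 ± SE from that fit. The block takes out the difference that all classes of a batch share. The p-values therefore rest on the spread left between the sums, that is on how far class differences varied between the 2 batches. They do not measure the spread between mice and take no account of the classes having been made from the same cells.

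Secretoglobin *Scgb1a1*, the classical club cell product, was concentrated in airway cells of both batches. Airway cells held 491 *Scgb1a1* UMIs per 10000 in Batch 1 (interval 472 to 510) and 500 in Batch 2 (497 to 503). Alveolar cells held 1.62 and 2.29 per 10000, and non-epithelial cells 0.453 and 3.65. Although they made up few of the cells, airway cells contained 89.8% and 94.2% of all *Scgb1a1* UMIs kept. In Batch 1, 9 of 13 airway cells (69.2%, interval 38.6 to 90.9) had a *Scgb1a1* UMI and in Batch 2 111 of 118 (94.1%, 88.2 to 97.6). Its level was higher in airway than in alveolar cells by 7.47 ± 0.70 on the log2 scale (edgeR, adjusted p = 3.8e-10) and higher than in non-epithelial cells by 8.35 ± 0.45 (edgeR, adjusted p = 1.8e-16).

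*Scgb3a2*, whose product is another secretoglobin of the bronchial epithelium, followed the same order of classes. Airway cells held 256 per 10000 (242 to 270) in Batch 1 and 102 (100 to 103) in Batch 2, alveolar cells 0.171 and 0.332, and non-epithelial cells 0.140 and 0.547. In Batch 1, 1 ciliated-like cell held 802 of the 1338 airway UMIs of *Scgb3a2*, and without the cell with most of its UMIs the airway levels were 130 and 93.8. Without the cell with most *Scgb1a1* UMIs, the airway levels of *Scgb1a1* were 355 and 503, so that single cells weighed on both genes in Batch 1. *Scgb3a2* was detected in 53.8% and 79.7% of airway cells, which held 95.4% and 95.7% of its UMIs. The difference was 9.07 ± 0.66 (adjusted p = 2.3e-12) against alveolar and 8.99 ± 0.41 (adjusted p = 3.5e-18) against non-epithelial cells in edgeR.

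Among the enzymes, *Cyp2f2* was the more restricted to airway cells. Its level there was 12.6 per 10000 (9.75 to 16.0) in Batch 1 and 14.8 (14.2 to 15.4) in Batch 2, against 0.0659 and 0.0658 in alveolar cells and 0.0155 and 0.0546 in non-epithelial cells. The non-epithelial values rested on 5 and 52 UMIs. *Cyp2f2* was detected in 6 of 13 and 83 of 118 airway cells. Its airway level was higher by 7.37 ± 0.45 than in alveolar cells (edgeR, adjusted p = 5.1e-14) and by 8.23 ± 0.31 than in non-epithelial cells (edgeR, adjusted p = 4.7e-20).

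*Cbr2* was high in airway cells of both batches, at 79.3 per 10000 (71.9 to 87.3) and 77.8 (76.5 to 79.2), and was found in all 13 airway cells of Batch 1 and in 115 of 118 of Batch 2. Unlike the secretoglobins, it was also present in alveolar cells, at 11.8 (11.0 to 12.6) and 11.7 (11.4 to 11.9), against 0.177 and 0.490 in non-epithelial cells. Airway cells thus exceeded alveolar cells by only 2.10 ± 0.40 (edgeR, adjusted p = 0.000165; 0.051 with no replicate block), but exceeded non-epithelial cells by 7.73 ± 0.33 (edgeR, adjusted p = 7e-19).

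**Figure D1:**
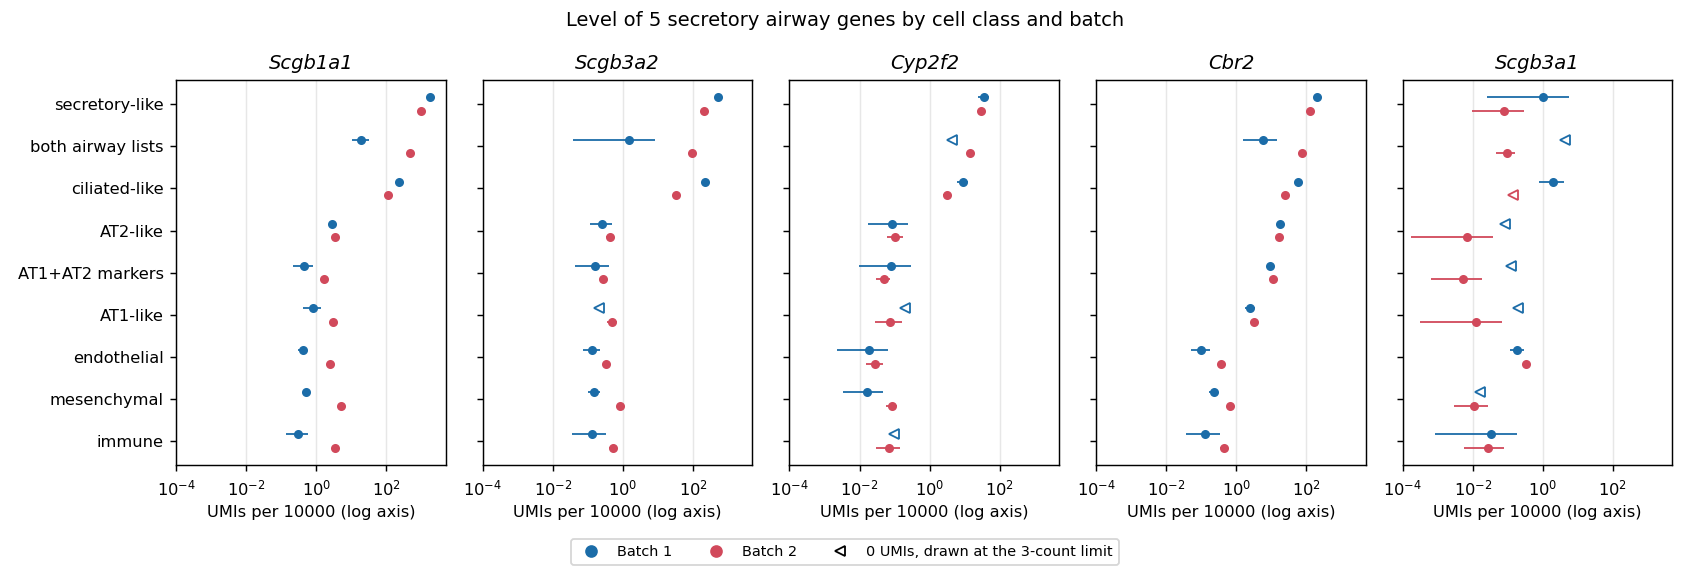
Level of 5 genes in 9 cell classes of each batch, as UMIs per 10000 UMIs of the summed cells on a log axis, with 1 point per class and batch and exact Poisson 95% intervals; open triangles mark classes with 0 UMIs, drawn at the level that 3 counts would give. *Scgb1a1*, *Scgb3a2* and *Cyp2f2* are high only in airway rows, but not in the Batch 1 row of both airway lists (19.1, 1.47 and 0). *Cbr2* has a second, lower step in AT2-like cells (17.5 and 17.1), and *Scgb3a1* has its best supported values in endothelial cells.

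Of the 7 genes, 5 had enough counts to be tested, and these 5 were called higher in airway than in alveolar cells, where 10.3% of the 12511 genes tested were called higher and 11.2% lower (21.6% either way), and higher than in non-epithelial cells, where 18.8% were called higher and 16.7% lower (35.5% either way). Their median difference was 7.37 and 8.23, against -0.27 and -0.17 over all genes tested. Because the genes were chosen as airway products, these counts describe them and are not evidence about airway genes in general. *Scgb3a1* was among the 5 but differed in kind, as described further on.

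Between alveolar and non-epithelial cells, 1 member was called higher (*Cbr2*) where 20.9% of genes were, and 0 lower where 16.0% of genes were (36.9% either way). DESeq2 also called 1 higher and 0 lower, and at an unadjusted p under 0.05 edgeR had 1 lower (*Scgb3a1*). *Cbr2* exceeded the non-epithelial level by 5.63 ± 0.32 (edgeR, adjusted p = 3.4e-16). For the others, edgeR gave 0.88 ± 0.46 for *Scgb1a1* (adjusted p = 0.136), 0.86 ± 0.43 for *Cyp2f2* (adjusted p = 0.123), -0.08 ± 0.45 for *Scgb3a2* (adjusted p = 0.928) and -2.34 ± 1.03 for *Scgb3a1* (adjusted p = 0.0733). These 4 did not pass the test, which does not show that the levels were the same, and for *Scgb3a1* the non-epithelial reference was mostly endothelial (20 of 21 UMIs in Batch 1 and 151 of 158 in Batch 2). With each batch on its own, *Scgb1a1* pointed in opposite directions, at 2.30 in Batch 1 and -0.34 in Batch 2.

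**Figure D2:**
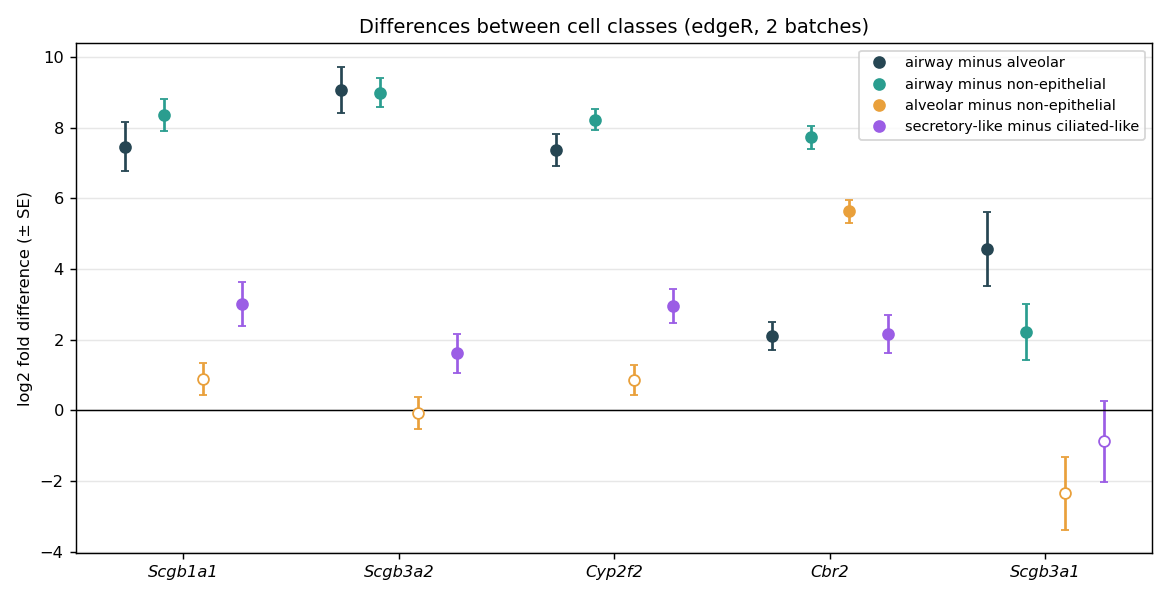
Log2 differences of 5 genes between cell classes from edgeR over the 2 batches, with bars for ± SE; filled points have an adjusted p under 0.05 and open points do not. Against non-epithelial cells, *Cbr2* is the only filled point of the alveolar comparison (5.63).

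Within the alveolar epithelium, *Cbr2* followed the AT2 side. AT2-like cells held 17.5 per 10000 (16.1 to 18.9) in Batch 1 and 17.1 (16.5 to 17.8) in Batch 2, cells with AT1 and AT2 markers 9.21 and 11.4, and AT1-like cells 2.47 (1.74 to 3.41) and 3.14 (2.77 to 3.55). The order was the same in both batches, and the intervals of AT2-like and AT1-like cells did not overlap. *Cbr2* was detected in 68.4% and 77.4% of AT2-like cells and in 14.1% and 17.9% of AT1-like cells. Over the 4 AT2-like clusters with both batches summed, its level lay between 16.2 and 17.9, whereas over the 3 AT1-like clusters it ranged from 0.378 to 6.10. Among the 6 clusters with markers of both alveolar types, 1 of 120 cells led by *Nupr1*, a stress response gene, reached 24.0, with 12.7 in its 10 cells of Batch 1 and 24.7 in its 110 cells of Batch 2. Alveolar cells held 60.6% of all *Cbr2* UMIs in Batch 1 and 34.4% in Batch 2, more and less than the 28.1% and 61.4% of airway cells. Subtracting the mean UMIs per non-epithelial cell of the same batch left AT2-like cells at 17.3 and 16.7 and AT1-like cells at 2.35 and 2.68.

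The genes whose levels followed *Cbr2* most closely over 96 sums of cluster and batch were *Sfta2* (Pearson r = 0.84), *Sftpd* (r = 0.84), which encodes surfactant protein D, and *Wfdc2* (r = 0.82), with r taken on log2(CPM + 1) and given as a description. For *Cyp2f2* they were *Cckar* (r = 0.70), *Dynlrb2* (r = 0.69), a dynein light chain gene, and *Lrrc26* (r = 0.66). *Scgb3a2* was nearest to *Ccdc153* (r = 0.66), *Cckar* and *Cxcl17* (r = 0.62 each), and *Scgb1a1* to *Ankrd32* (r = 0.61), *Lrrc26* (r = 0.58) and the mitochondrial ribosomal RNA *mt-Rnr2* (r = 0.56). The sums share 2 libraries and differ in depth.

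The 3 airway groups were then compared. Secretory-like cells held 1737 *Scgb1a1* UMIs per 10000 in Batch 1 and 961 in Batch 2, cells with both lists 19.1 and 473, and ciliated-like cells 229 and 112. The ciliated-like values came largely from single cells. In Batch 1, 1 of 7 cells carried 808 of the 814 *Scgb1a1* UMIs, and in Batch 2, 1 of 25 carried 1674 of 2396. Without that cell, ciliated-like cells held 2.45 and 45.8 per 10000. Cell by cell, the median *Scgb1a1* level was 1570 per 10000 (range 1109 to 2422) and 1063 (14.2 to 2107) in secretory-like cells and 4.59 (0 to 731) and 5.25 (0 to 378) in ciliated-like cells. Every secretory-like cell of Batch 1 was above every ciliated-like cell, whereas the ranges overlapped in Batch 2.

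The 4 genes *Scgb1a1*, *Scgb3a2*, *Cyp2f2* and *Cbr2* were found together in 4 of 4 and 33 of 37 secretory-like cells, in 0 of 2 and 39 of 56 cells with both lists and in 1 of 7 and 6 of 25 ciliated-like cells. All 7 genes together took a median of 25.5% of the UMIs of a secretory-like cell in Batch 1 and 13.7% in Batch 2, with a highest value of 29.9% and 28.1%. In ciliated-like cells the medians were 0.632% and 0.174%, and in cells with both lists 0.279% and 7.05%. The 2 cells of Batch 1 with both lists thus resembled its ciliated-like cells in these genes. In Batch 2 only the median of the 56 lay between the other groups. The 56 cells ranged from 0 to 18.8%, and 44 of them were at 1% or more. All 37 secretory-like cells and 4 of 25 ciliated-like cells of Batch 2 reached 1%.

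*Scgb3a2* had levels of 533 and 211 per 10000 in secretory-like cells and 226 and 32.5 in ciliated-like cells, where removing the cell with most *Scgb1a1* left 0.409 and 4.32. *Cyp2f2* was at 34.9 and 29.3 in secretory-like cells and 8.73 and 3.08 in ciliated-like cells, or 0.409 and 1.33 without that cell. *Cbr2* was at 201 and 127 in secretory-like cells, and in ciliated-like cells at 58.9 and 24.9, or 40.9 and 14.0 without that cell. *Cbr2* was thus the member least dependent on that cell in the ciliated-like group, where 7 of 7 and 24 of 25 cells had a *Cbr2* UMI and the median cell stood at 63.2 and 9.15 per 10000.

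With secretory-like and ciliated-like cells as separate sums, edgeR called 4 members higher in secretory-like cells, where 3.97% of 11546 genes tested were called higher and 4.88% lower (8.85% either way). The differences were 3.02 ± 0.62 for *Scgb1a1* (adjusted p = 8.4e-05), 2.96 ± 0.48 for *Cyp2f2* (adjusted p = 1.1e-07), 2.16 ± 0.53 for *Cbr2* (adjusted p = 0.0013) and 1.62 ± 0.55 for *Scgb3a2* (adjusted p = 0.0381). Without the cell with most *Scgb1a1* in each class and batch, a setting chosen after seeing the data, they were 6.41, 5.01, 2.60 and 7.41, all called by edgeR. These calls rest on 4 and 7 cells in Batch 1, and DESeq2 called 0 of the 4 (adjusted p between 0.070 and 0.65, with 3 at an unadjusted p under 0.05) and edgeR with no replicate block 1 (*Cyp2f2*). With RLE size factors in place of TMM, edgeR called 287 genes higher and 928 lower, against 458 and 564, and 3 members, *Scgb3a2* being lost (1.09, adjusted p = 0.162).

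**Figure D3:**
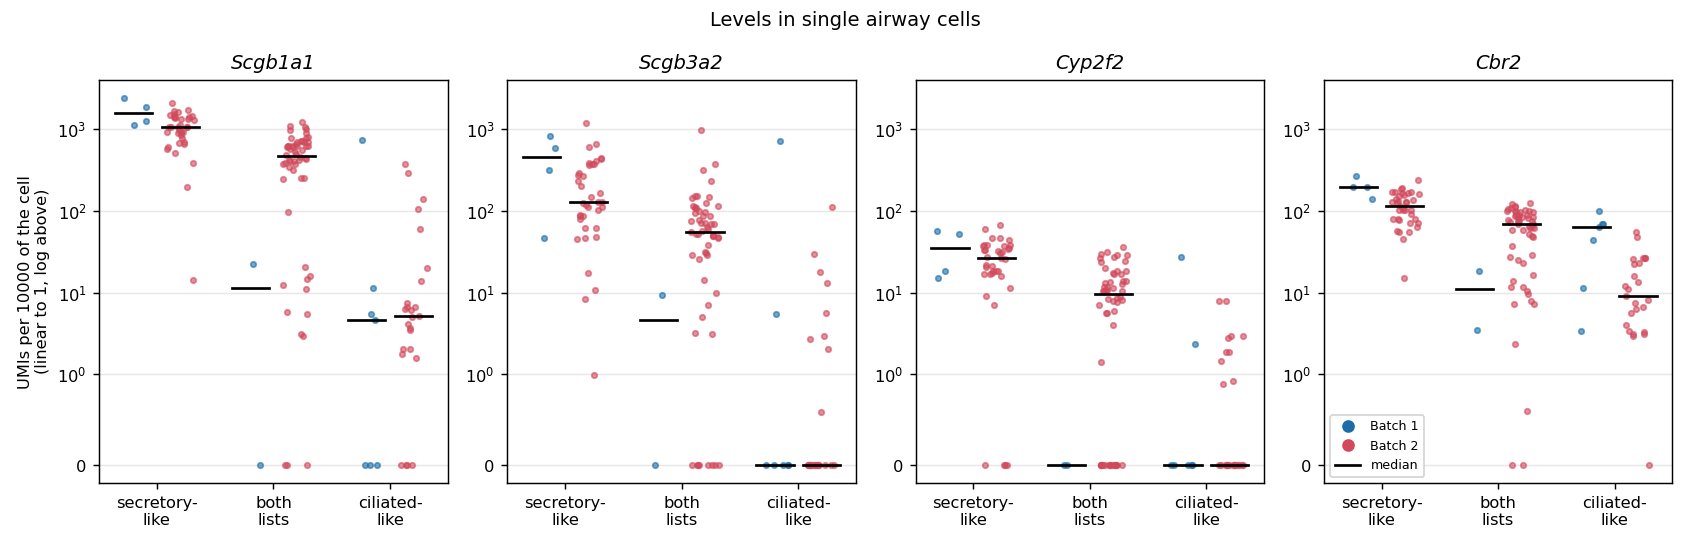
Level of 4 genes in each airway cell, as UMIs per 10000 UMIs of the cell on an axis that is linear to 1 and logarithmic above; points are cells, coloured by batch, and black lines are medians. Secretory-like cells lie high for all 4 genes, ciliated-like cells are mostly near 0 for *Scgb3a2* and *Cyp2f2* with a few high cells, and *Cbr2* stays above 0 in nearly every cell.

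Across the 118 airway cells of Batch 2, *Scgb1a1* levels ran with those of *Scgb3a2* (Spearman rho = 0.85), *Cyp2f2* (0.75) and *Cbr2* (0.74) and opposite to *Foxj1* (-0.66). Within the 37 secretory-like cells the correlation of *Scgb1a1* with *Scgb3a2* was 0.77, with *Cyp2f2* 0.32 and with *Cbr2* 0.01. *Scgb3a2* and *Cbr2* had a rho of 0.22 in the same 37 cells. In the 56 cells with both lists, *Cbr2* ran with both secretoglobins, at 0.56 for *Scgb1a1* and 0.58 for *Scgb3a2*. Cells of 1 library share its depth and free RNA, and these values are descriptions of that library.

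Outside the airway, the secretoglobins were detected in many cells, and the share differed sharply between the batches. In Batch 1, a *Scgb1a1* UMI was found in 15.3% of alveolar cells and 5.76% of non-epithelial cells, and in Batch 2 in 54.3% and 46.0%. Median UMIs per cell were 2089 and 3418 in alveolar cells of the 2 batches, 1301.5 and 1892 in endothelial cells, 1285 and 1670 in mesenchymal cells and 1385.5 and 1896 in immune cells. After thinning each cell to 600 UMIs, alveolar cells showed 7.82% and 14.5%, non-epithelial cells 2.70% and 20.4%, and airway cells 53.8% and 81.4%. At equal depth, fewer alveolar than non-epithelial cells of Batch 2 therefore had a *Scgb1a1* UMI, and the order was the reverse in Batch 1. The 45.9% of endothelial, 45.7% of mesenchymal and 47.7% of immune cells of Batch 2 had overlapping intervals, so that cells that should lack the gene set a detection background close to that of alveolar cells. Their levels were less alike, at 2.53 per 10000 in endothelial, 5.11 in mesenchymal and 3.43 in immune cells.

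*Scgb3a2* behaved in the same way at lower numbers, with 4.08% and 12.5% of alveolar cells and 2.14% and 9.66% of non-epithelial cells. *Cyp2f2* was found in 1.70% and 3.00% of alveolar and 0.255% and 1.07% of non-epithelial cells. *Cbr2* was found in 1.84% and 9.41% of non-epithelial cells, far below its 52.4% and 64.2% of alveolar cells.

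Background levels were higher in Batch 2, where the library as a whole also held more of each of these transcripts. *Scgb1a1* was 7.51 times as high in Batch 2 as in Batch 1 over all kept cells (48.5 against 6.45 per 10000) and 8.05 times as high in non-epithelial cells. For *Scgb3a2* these ratios were 3.07 and 3.91, for *Cbr2* 3.48 and 2.77, and for *Cyp2f2* 8.19 and 3.51, the last on 5 non-epithelial UMIs in Batch 1. The airway levels of *Scgb1a1*, *Cyp2f2* and *Cbr2* summed over all airway cells were close between batches, but the mix of airway groups was not the same: Batch 2 had 0.553 times the Batch 1 level of *Scgb1a1* in secretory-like cells, 0.487 times in ciliated-like cells and 24.8 times in cells with both lists. Airway cells were 13 of 2388 kept cells in Batch 1 and 118 of 5615 in Batch 2.

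The proportions of the genes to each other were also compared, since free RNA of 1 source keeps them in 1 ratio. For every 100 *Scgb1a1* UMIs, Batch 2 airway cells had 20.4 UMIs of *Scgb3a2* (interval 20.03 to 20.71), endothelial cells 12.9 (10.8 to 15.2), mesenchymal cells 16.3 (14.4 to 18.4), immune cells 14.9 (11.1 to 19.6) and alveolar cells 14.5 (12.5 to 16.8). The 3 non-epithelial classes and the alveolar cells overlapped, and all lay below the airway ratio. For *Cbr2* the Batch 2 ratios were 15.6 in airway, 14.6 in endothelial, 12.7 in mesenchymal and 13.3 in immune cells, but 509 (481 to 539) in alveolar cells. *Cbr2* UMIs of alveolar cells were thus far out of the proportion seen in the other classes. For *Cyp2f2* the Batch 2 ratio was 2.87 (2.05 to 3.92) in alveolar cells, above the 1.49 (1.11 to 1.96) of non-epithelial cells and overlapping the 2.96 of airway cells. In Batch 1 the same held for *Cbr2*, with 727 in alveolar against 39.0 in non-epithelial and 16.2 in airway cells. For *Scgb3a2* the Batch 1 ratios were 10.6 (5.47 to 18.8) in alveolar, 30.8 (21.6 to 43.3) in non-epithelial and 52.1 in airway cells. The alveolar interval overlapped neither of the others, but single cells weighed on these sums. A ciliated-like cell held 808 of the 2569 *Scgb1a1* and 802 of the 1338 *Scgb3a2* UMIs of airway cells. An AT2-like cell held 48 of the 123 *Scgb1a1* and 1 of the 13 *Scgb3a2* UMIs of alveolar cells. The intervals cover counting error only, and whether the gaps remain without these cells was not tested.

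**Figure D4:**
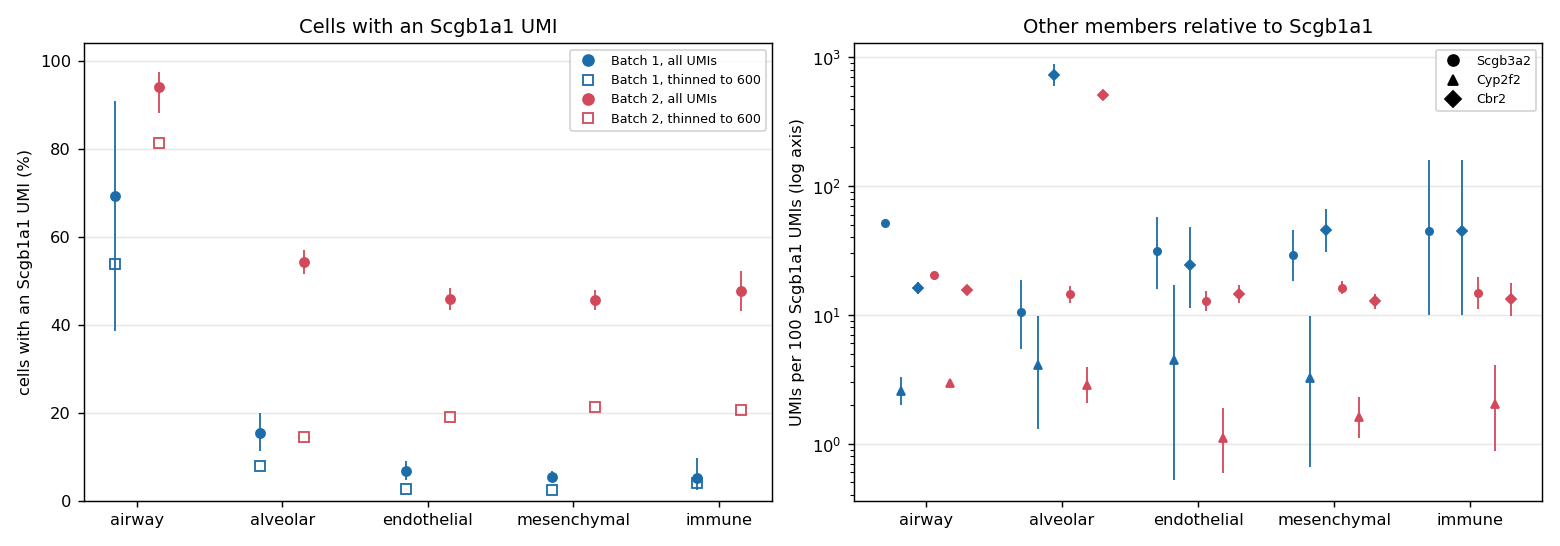
Left, the percentage of cells with a *Scgb1a1* UMI by class and batch, with exact 95% intervals for all UMIs (filled) and the share after thinning to 600 UMIs (open squares). Right, UMIs of 3 other genes per 100 *Scgb1a1* UMIs on a log axis, with exact 95% intervals; *Cyp2f2* in Batch 1 immune cells, at 0, is not drawn. Non-epithelial cells of Batch 2 sit near 46.0% detection, and the *Cbr2* ratio departs from the other classes in alveolar cells (727 and 509).

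Deeper cells held more *Scgb1a1* UMIs in Batch 2 but not in proportion to their depth. There, non-epithelial cells sorted by total UMIs into 3 sets of 1336 had a mean of 0.603, 0.700 and 1.30 *Scgb1a1* UMIs per cell, so that the level fell from 5.66 to 3.94 and 3.03 per 10000 while total UMIs rose. The same sets of Batch 1 had 0.0795, 0.0613 and 0.0826 UMIs per cell. Less the mean UMIs per non-epithelial cell, the alveolar level of *Scgb1a1* was 1.33 in Batch 1 and 0.481 in Batch 2, and for AT1-like cells of Batch 2 it was -0.47. In Batch 2, the deepest set and the mean subtracted include 1 mesenchymal cell with 402 *Scgb1a1* UMIs among its 4463. That cell raised both means and so lowered the Batch 2 values less background. These values were not computed without it.

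Single cells outside the airway clusters held large amounts. An AT2-like cell of Batch 1 carried 48 of the 100 *Scgb1a1* UMIs of its class, and 1 of Batch 2 carried 149 of 529. Without these cells, AT2-like levels were 1.46 and 2.52 per 10000. A mesenchymal cell of Batch 2 carried 402 *Scgb1a1*, 64 *Scgb3a2*, 8 *Cyp2f2* and 22 *Cbr2* UMIs among its 4463, and without it the mesenchymal *Scgb1a1* level fell from 5.11 to 4.04. All of *Scgb1a1*, *Scgb3a2*, *Cyp2f2* and *Cbr2* were found together in 0 and 3 non-epithelial cells and in 0 and 6 alveolar cells.

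*Scgb3a1*, a secretoglobin of larger airways, had few UMIs and was distributed otherwise. Endothelial cells held 20 of its 32 UMIs in Batch 1 and 151 of 183 in Batch 2, that is 62.5% and 82.5%. The endothelial level was 0.183 per 10000 (0.112 to 0.283) and 0.325 (0.275 to 0.381), with a UMI in 17 of 568 cells (2.99%, 1.75 to 4.75) and 99 of 1535 (6.45%, 5.27 to 7.80). Mesenchymal cells held 0 and 4 UMIs, which in Batch 1 allows up to 0.245% of cells with a UMI at 3 counts (exact upper bound 0.301%), immune cells 1 and 3, and alveolar cells 0 and 4. The endothelial share in Batch 2 was above the mesenchymal (0.201%, 0.0549 to 0.515), immune (0.617%, 0.127 to 1.79) and alveolar shares (0.308%, 0.0840 to 0.787), with no overlap of intervals, and after thinning to 600 UMIs it was 2.08% against 0.101%, 0.617% and 0.077%. In Batch 1 it did not overlap the mesenchymal and alveolar intervals but overlapped the immune one. This pattern was noticed in the data, so no test is given for it.

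Endothelial cells with *Scgb3a1* were set beside endothelial cells without it. All 17 and 99 had at least 1 endothelial marker UMI, with medians of 7 and 8 of the 11 markers, and 0 and 1 had 2 or more epithelial markers. Of the cells without *Scgb3a1*, 548 of 551 and 1434 of 1436 had an endothelial marker, with medians of 6 and 7, and 6 and 28 had 2 or more epithelial markers. The clusters were named from these endothelial markers, so their presence is not separate evidence of cell type. Their *Scgb1a1* level was 0 and 1.47 per 10000, against 0.427 and 2.68 in endothelial cells without *Scgb3a1*. They were deeper, with medians of 1760 and 3667 UMIs against 1293 and 1832.5. Most had a single *Scgb3a1* UMI, while 2 and 30 cells had 2 or more and the highest had 3 and 7.

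Over 12 endothelial clusters with both batches summed, the *Scgb3a1* level ranged from 0 to 0.903 per 10000. The highest cluster, of 213 cells led by *Lyve1*, *Ramp2* and *Egfl7*, had 55 UMIs in 31 cells and held 9.74 *Gpihbp1* UMIs per 10000, a gene of capillary endothelium. It was high in each batch, at 0.813 in Batch 1 (6 UMIs) and 0.916 in Batch 2 (49 UMIs). The cluster led by *Ednrb* and *Car4* (149 cells) had 1 UMI, and the *Ccl21a*-led cluster with *Prox1* (44 cells), *Prox1* being the master regulator of lymphatic identity, had 0. Its level of the neighbouring gene *Flt4* was 6.08 per 10000, the highest of the 12, and the cluster highest for *Scgb3a1* came next at 0.903. In other clusters *Flt4* was at 0.253 where *Scgb3a1* was at 0.0230, and at 0.782 where it was at 0.391. The lowest *Flt4* of the 12, 0.246 in a cluster led by *Cxcl12*, went with *Scgb3a1* at 0.223. In the cluster led by *Ednrb* and *Car4* of 149 cells, *Flt4* was at 0.510 and *Scgb3a1* at 0.0464. A cluster led by *Cenpf* had *Flt4* at 0.567 and 0 *Scgb3a1* UMIs. A link between these neighbouring genes was not tested. Genes most like *Scgb3a1* over the 96 sums were *Grp* (r = 0.66), *Eltd1* (r = 0.64), an adhesion receptor gene of endothelium, and *Prr18* (r = 0.62).

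**Figure D5:**
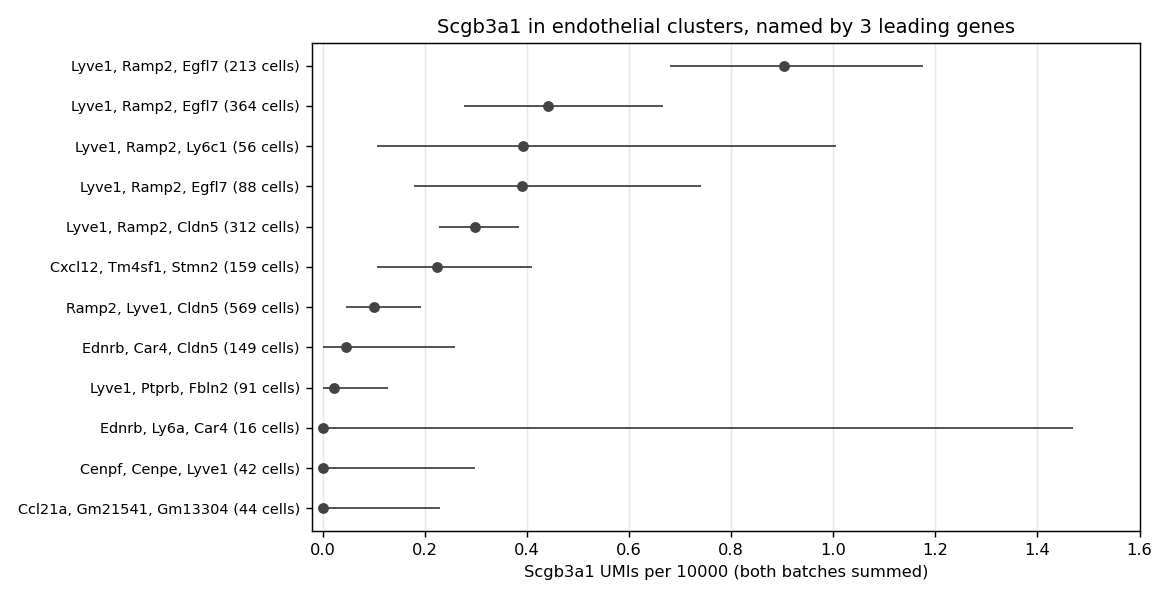
*Scgb3a1* UMIs per 10000 in 12 endothelial clusters, both batches summed, with exact Poisson 95% intervals; clusters are labelled by 3 leading genes and their number of cells. The cluster of 213 cells is highest (0.903), and 3 clusters with 102 cells in all had 0 UMIs.

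In airway cells *Scgb3a1* had 8 UMIs in 2 cells of Batch 1, 7 of them in 1 ciliated-like cell, and 13 UMIs in 9 cells of Batch 2. The levels were 1.53 per 10000 (0.660 to 3.01) and 0.0781 (0.0416 to 0.134). In Batch 2 airway cells thus lay below endothelial cells, whereas in Batch 1 they lay above. edgeR gave 4.57 ± 1.05 against alveolar cells (adjusted p = 0.00143), a fitted value against 0 UMIs in 1 of the 2 alveolar sums, and 2.22 ± 0.79 against the mean of the 3 non-epithelial classes (adjusted p = 0.0264). The second call was lost with no replicate block (adjusted p = 0.059), with 1 non-epithelial sum per batch (0.52, adjusted p = 0.57) and without the cell with most *Scgb1a1* (0.82, adjusted p = 0.38) in edgeR.

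*Bpifa1* and *Muc5b* were too sparse to be tested. *Bpifa1* had 2 UMIs in Batch 1, in 2 endothelial cells, and was found in 0 of 13 airway cells, which allows up to 23.1% of cells with a UMI at 3 counts and sets no limit on cells expressing the gene. *Muc5b* had 10 UMIs in 10 cells of Batch 1 and 13 in 13 cells of Batch 2. Airway cells held 2 of the 10 and 1 of the 13, or 0.382 and 0.00601 *Muc5b* UMIs per 10000. Alveolar cells were at 0.0395 and 0.0112 and non-epithelial cells at 0.0124 and 0.00420. With airway values resting on 2 and 1 UMIs, neither gene was shown to be present in or absent from airway cells at this depth.

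The related genes left out of the clustering were described as groups. Of 17 enzymes of foreign compound and redox metabolism, 15 were tested, and 13 rose in airway over alveolar cells and 15 over non-epithelial cells, against 10.3% and 18.8% of all genes. *Aldh1a1*, a retinaldehyde dehydrogenase gene, stood at 7.64 and 7.17 per 10000 in airway cells and 0 and 0.0369 in alveolar cells, and *Cyp2s1*, another cytochrome P450 gene, at 3.63 and 3.36 against 0.0264 and 0.0257. Both were called by edgeR (adjusted p = 1.7e-13 and 8.4e-13). Unlike *Cyp2f2*, *Cyp2s1* lay on the ciliated side, at 0 and 0.478 per 10000 in secretory-like and 5.35 and 9.88 in ciliated-like cells, a difference of -3.77 ± 0.53 (edgeR, adjusted p = 4.3e-10), and *Aldh1a1* was not called between these cells (-0.15 ± 0.42, adjusted p = 0.968). Of these 15 enzymes, 8 were called higher and 1 lower in secretory-like than ciliated-like cells, against 3.97% and 4.88% of all genes.

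Of 12 genes of airway secretion and defence, 6 were tested, with 1 higher and 1 lower in airway than alveolar cells, where 10.3% and 11.2% of all genes were, so that these counts are too small to set the group apart. The higher was *Agr2*, a disulfide isomerase gene of mucus cells, which rested on 1 and 14 airway UMIs with 0 in alveolar and non-epithelial cells of both batches. Secretory-like and ciliated-like cells of Batch 2 held 0 of the 14. The lower was *Chi3l1*, a chitinase-like protein gene. Among 10 BPI fold and mucin genes, 2 were tested and both were called lower in airway than alveolar cells (11.2% of all genes were), *Muc1* with a log2 difference of -1.11 ± 0.32 (edgeR, adjusted p = 0.0101) and *Bpifb5* with -2.85 ± 0.90 (edgeR, adjusted p = 0.0200). *Chi3l1*, *Muc1* and *Bpifb5* are named after their values were seen. Of these, *Muc1*, a membrane mucin of many epithelia, was at 1.15 and 1.66 per 10000 in airway, 3.14 and 2.09 in alveolar and 0.0559 and 0.0514 in non-epithelial cells.

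Cell types were also taken from the study's own list of Batch 1 cells, of which part was used here. Its 12 airway cells gave 478 *Scgb1a1* and 78.0 *Cbr2* UMIs per 10000, and its 272 alveolar cells 1.63 and 11.9. All 12 were airway cells here too, and 249 of the 272 were alveolar cells here. The values thus come largely from the same cells and are not a separate check of the levels.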

How the data were processed

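Per the labels and the study's methods, the authors sequenced Drop-seq libraries of 2 PND1 lungs, aligned the reads to mm10 with Bowtie2 2.2.7, and deposited raw UMI counts per gene and cell, unnormalized. Every deposited cell had at least 500 genes. The 10% mitochondrial limit was applied here and left 4432553 and 18232639 UMIs in the 2 batches.

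Cells were clustered with scikit-learn 1.9.0 and leidenalg 0.10.2 (2000 variable genes, 30 components, 15 neighbours, resolution 2, epithelial cells again with 20 components), without the members and related genes. Genes were scaled within each batch, and links between cells were weighted by the share of neighbours in common. Scrublet was run in scanpy 1.11.5. Clusters were named from marker lists. The thresholds for clusters with both airway lists (75% of secretory and 50% of ciliated markers) were set after seeing the data. Mixed, mesothelial and erythroid clusters were left out of comparisons. The members, lists and marker genes were chosen with earlier results of these data known.

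Counts summed per class and batch were tested in edgeR 4.0.16 (TMM, filterByExpr, quasi-likelihood test, called at an adjusted p under 0.05), 10 sums in the first fit and 12 with secretory-like and ciliated-like cells apart. The batch was the replicate block because the classes of a batch come from 1 library, assumed to be of 1 mouse. Deviations of classes of 1 batch correlated at 0.09 to 0.46 over 10 pairs. All members were named, and within each group of related genes the 2 with the largest change in each direction among those called in both airway comparisons. Alternatives included DESeq2 1.42.0. The edgeR fit was also run on simulated sums with some genes changed in airway cells. These sums had no batch differences, no other class differences and a common spread, so they do not cover the design used here. Detection and level intervals are exact. Promoters and motif counts are from RefSeq, and no promoter of *Scgb1a1*, *Scgb3a2* or *Muc5b* and no protein sequence was used here.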

Additional observations from a re-analysis of the deposited data

Results flagged for a closer look

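The 1940 cells of Batch 2 with more than 10% mitochondrial UMIs, which no comparison used, held 4 members above the level of the non-epithelial cells kept. They were below the level of all kept Batch 2 cells, airway cells included, which was 48.5 UMIs per 10000 for *Scgb1a1*, 9.72 for *Scgb3a2*, 1.40 for *Cyp2f2*, 11.6 for *Cbr2* and 0.100 for *Scgb3a1*. Levels over the limit were 15.7 UMIs per 10000 for *Scgb1a1* (3.65 in kept non-epithelial cells), 3.52 for *Scgb3a2* (0.547), 0.447 for *Cyp2f2* (0.0546) and 7.08 for *Cbr2* (0.490). For *Scgb3a1* the level was 0.0517, below the 0.166 of kept non-epithelial cells. Which classes these cells belong to was not analysed here.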

How the results depend on the processing

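Over the alternatives, 276 values of single genes and 112 counts and levels were counted as unchanged. Apart from values of 1 batch alone, differences of single genes among these kept their direction and side of the threshold. Levels and detection shares moved by less than the SD of the 2 batches, or stayed within the Poisson interval for the cells listed by the study. Counts of genes or members called were held only to a limit on their ratio to the main count. Thus 4 members in place of 5 between airway and non-epithelial cells were counted as unchanged. So were 1805 genes in place of 2699 between airway and alveolar cells, without cells of both airway lists. Sizes could differ (*Scgb1a1* between secretory-like and ciliated-like cells ranged from 2.52 to 6.41). Values of 1 batch alone have no test, and their sign changes were counted only for genes called in the main fit. Those not counted include *Scgb1a1* (-0.34) and *Scgb3a2* (0.595) between alveolar and non-epithelial cells. *Scgb3a1* between secretory-like and ciliated-like cells (7.12) is another. Another 30 and 11 moved, 14 calls were lost, 4 gained and 3 signs changed among alternatives with a test. Without the pairing by batch, that is with no replicate block, genes called between airway and alveolar cells fell from 2699 to 1218 and between secretory-like and ciliated-like cells from 1022 to 327, and 1 member in place of 4 was called in the latter. DESeq2 called 0 members there, and a 5% mitochondrial limit 568 genes. Between alveolar and non-epithelial cells, 2 members were called higher and 1 lower without the count filter, and 1 lower (*Scgb3a1*) with 1 non-epithelial sum per batch and without the cells with most *Scgb1a1*. The mean airway level of *Scgb1a1*, 495 ± 6.48 (SD, n = 2 batches), was 555 after thinning and 567 as a mean over cells. The 3 signs that changed with a test were for *Scgb3a2* between alveolar and non-epithelial cells (0.0054 at 5% mitochondrial UMIs, 0.017 without the filter) and for *Scgb3a1* between secretory-like and ciliated-like cells (6.81 without the top cells), none of them called. With 1 batch left out there is no test. The values for *Scgb1a1* were then 7.40 and 7.43 between airway and alveolar cells, and those for *Scgb3a1* 3.16 and 10.64. RLE size factors moved the median of all genes from 0.01 to -0.33 between secretory-like and ciliated-like cells and from 0.00 to -0.10 between alveolar and non-epithelial cells. The causes were not tested. Batch 1, with 13 airway cells, limits all airway comparisons.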

Other observations

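*Scgb1c1*, a secretoglobin gene that was on the related list, had most of its UMIs in alveolar cells. It had 26 and 66 UMIs in alveolar cells of the 2 batches and 1 and 2 in airway cells, or 0.343 and 0.106 per 10000 against 0.191 and 0.0120, the airway values resting on 3 UMIs in all. Its level was lower in airway than in alveolar cells (log2 difference -3.08 ± 0.95, edgeR, adjusted p = 0.0174) and higher in alveolar than in non-epithelial cells, which held 0 and 3 UMIs (fitted difference 6.78 ± 0.75, edgeR, adjusted p = 6.3e-09). With a 5% mitochondrial limit the first of these calls was lost (adjusted p = 0.0709). *Chi3l1* was likewise higher in AT2-like cells (7.32 and 2.36 per 10000) than in airway cells (0.573 and 0.444). *Clca1* and *Clca2*, of the secretion and defence list, had most of their UMIs outside the epithelium, *Clca1* at 0.421 and 1.81 per 10000 in endothelial and 0.482 and 1.20 in mesenchymal cells. They were lower in airway than in non-epithelial cells (log2 differences -5.02 and -4.77, edgeR, adjusted p = 5.8e-08 and 0.000208) and were not called between airway and alveolar cells (adjusted p = 0.382 and 0.814). *Scgb1c1*, *Chi3l1*, *Clca1* and *Clca2* were chosen for mention after their values were seen.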
